A study of Mus musculus with 6 samples.

Results

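The Fc gamma receptors of the mouse, Fcgr1, Fcgr2b, Fcgr3 and Fcgr4, were examined in single cells. They are 4 of the 31054 features of the count matrix, matched by symbol, and each symbol matched 1 feature. The genes were selected on measured values of these data, because Fcgr3 had been seen to be far lower in osteoclasts than in macrophages and the receptors to differ among myeloid cells. Their levels across cell types are therefore given as a description, and no test was run on them.

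The series was made to characterise the embryonic precursors of osteoclasts, the cells of the macrophage lineage that resorb bone. Its labels describe 6 mouse samples in 3 groups of 2. The first group holds cells of Cx3cr1CreER; R26tdTomato embryos exposed to 4 hydroxytamoxifen at E9.5, and the second those of Csf1r-Mer-iCre-Mer; Csf1r-EGFP; R26tdTomato embryos exposed at E8.5. In both, cells of the monocyte and macrophage lineages were taken from whole bodies at E14.5. The third group is wildtype C57BL/6 total bone marrow at 2 months of age. Cre is driven by Cx3cr1 or Csf1r in these lines, so only cells that used that gene during the pulse, and their descendants, are meant to carry the red tdTomato reporter. Whether a sample pooled several embryos or mice is not stated in the labels. The matrix numbers its libraries 1 to 4 at the end of each barcode, and those numbers match no sample label. The 6 samples could therefore not be told apart, and no comparison of driver lines or ages was made. The name of the matrix holds Cx3cr1 and Csf1r and does not mention bone marrow. Whether bone marrow cells are present was not decided beyond that name. The matrix is 1 pooled sample: values are given for all libraries summed and for each library, with no p-value.

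Fc gamma receptors bind the constant part of IgG and link antibody to phagocytosis, cytokine release and uptake of immune complexes. The products of Fcgr1, Fcgr3 and Fcgr4 are activating receptors. Each needs the shared gamma chain, the product of Fcer1g, whose tyrosine motif is phosphorylated by Src family kinases and then recruits the kinase Syk. The product of Fcgr2b signals alone through an inhibitory tyrosine motif that recruits phosphatases such as SHIP1 (Inpp5d). The balance of activating receptors and Fcgr2b sets how a macrophage answers antibody, and interferons are known inducers of several activating receptors.

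Fcgr2b, Fcgr4 and Fcgr3 lie together on chromosome 1 of GRCm38, the files' mm10 build: Fcgr2b from 170958617 to 170976547 on the minus strand, Fcgr4 from 171018920 to 171029761 on the plus strand, and Fcgr3 from 171051174 to 171064935 on the minus strand. Fcer1g follows on the minus strand at 171229572 to 171234365. Fcgr1 lies apart, on chromosome 3 from 96282909 to 96293969, minus strand. All are protein-coding in GENCODE M21. Their identifiers in the matrix are ENSMUSG00000015947 for Fcgr1, ENSMUSG00000026656 for Fcgr2b, ENSMUSG00000059498 for Fcgr3 and ENSMUSG00000059089 for Fcgr4.

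The following stretches show what separates the inhibitory receptor from the activating ones and where the inhibitory receptor and Fcgr3 are alike. The first lies in exon 8 of Fcgr2b, chr1:170961059-170961100 on the minus strand, and its capitals mark the codons of the inhibitory motif.
Fcgr2b inhibitory motif: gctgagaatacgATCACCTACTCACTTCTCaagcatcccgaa
The second is the longest part within 1 exon of the coding sequence that Fcgr2b and Fcgr3 share letter for letter. It lies in exon 3 of each, at chr1:170967980-170968081 in Fcgr2b and at chr1:171057691-171057792 in Fcgr3, both on the minus strand.
Fcgr2b and Fcgr3 shared stretch: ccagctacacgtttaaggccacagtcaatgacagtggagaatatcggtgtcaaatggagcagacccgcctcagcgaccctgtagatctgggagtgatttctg
In a search of the annotated coding sequences for a codon pattern of Ile, Leu or Val, any residue, Tyr, any 2 residues and Leu, each of the 4 Fcgr2b isoforms had 1 match in frame, and no isoform of Fcgr1, Fcgr3 or Fcgr4 had one. The whole shared run of Fcgr2b and Fcgr3 spans 129 bases of coding sequence, against at most 14 for any other pair. The printed part ends 3041 bases before the end of the Fcgr2b transcript and 933 before that of Fcgr3. Within the last 500 bases, where 3′ tags fall, no pair of the 4 transcripts shared a run longer than 13 bases, and for Fcgr2b and Fcgr3 the longest was 9. The counts sum the isoforms of each gene. Gm38204 is annotated opposite the 5′ end of Fcgr2b, and the sources used here do not say whether strand was used in counting.

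The promoters are shown because all 4 receptors were higher in interferon-marked cells, described further on. They are RefSeq windows of 300 bases (GRCm38.p6), 250 before the start of transcription and 50 after it, 5′ to 3′ on the gene's strand. Capitals mark matches, on either strand, to GAGGAA (the core bound by the myeloid factor PU.1), TTCNNNGAA (the STAT site) or the core of the interferon response element (GAAA, any 2 bases, GAAA). Of 2 windows listed for Fcgr3, which overlap, the one that starts farther upstream is shown. The windows shown for Fcgr2b and Fcgr3 lie inside the GENCODE genes, whose 5′ ends are at 170976547 and 171064935. The matches therefore describe these windows only, and starts at those ends were not searched.
Fcgr1, chr3:96293920-96294219, minus strand: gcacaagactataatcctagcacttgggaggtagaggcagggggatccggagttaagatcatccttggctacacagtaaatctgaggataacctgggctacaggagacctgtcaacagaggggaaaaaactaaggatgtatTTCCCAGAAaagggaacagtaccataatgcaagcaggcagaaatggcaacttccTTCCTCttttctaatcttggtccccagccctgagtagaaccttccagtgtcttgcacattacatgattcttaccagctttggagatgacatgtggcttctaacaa
Fcgr2b, chr1:170976022-170976321, minus strand: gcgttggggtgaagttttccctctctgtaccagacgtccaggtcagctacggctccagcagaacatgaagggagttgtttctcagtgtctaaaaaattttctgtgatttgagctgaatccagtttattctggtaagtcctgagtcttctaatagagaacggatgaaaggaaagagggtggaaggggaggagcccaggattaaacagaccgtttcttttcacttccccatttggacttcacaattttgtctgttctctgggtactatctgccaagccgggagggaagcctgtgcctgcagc
Fcgr3, chr1:171059354-171059653, minus strand: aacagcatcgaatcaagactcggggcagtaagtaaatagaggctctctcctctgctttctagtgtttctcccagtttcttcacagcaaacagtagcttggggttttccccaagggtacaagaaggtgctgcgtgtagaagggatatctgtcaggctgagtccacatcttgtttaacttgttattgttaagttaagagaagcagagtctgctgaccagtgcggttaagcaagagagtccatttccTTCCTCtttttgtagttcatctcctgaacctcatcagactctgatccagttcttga
Fcgr4, chr1:171018676-171018975, plus strand: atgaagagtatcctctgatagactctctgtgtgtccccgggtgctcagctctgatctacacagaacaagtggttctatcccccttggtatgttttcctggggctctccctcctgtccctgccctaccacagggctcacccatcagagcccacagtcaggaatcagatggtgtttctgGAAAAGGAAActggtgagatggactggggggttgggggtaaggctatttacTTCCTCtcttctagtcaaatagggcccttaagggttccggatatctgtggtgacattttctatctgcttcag
GAGGAA matched once each in Fcgr1, Fcgr3 and Fcgr4, with the left end of the match 55, 6 and 22 bases before the start, and 28.3% of all 32851 windows hold it. TTCNNNGAA matched once, in Fcgr1, 109 bases before the start, against 8.30% of all windows. The interferon response element core matched once, in Fcgr4, 73 bases before the start, against 3.44% of all windows. None of the 3 motifs was found in the Fcgr2b window. A match is a description of the letters and not a shown binding site, and the motifs do not overlap one another in these windows.

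The 4 libraries held 7750 to 13389 barcodes, 39048 in all with 561415289 unique molecular identifiers (UMIs, 1 per captured transcript). Of these, 34587 barcodes passed the cell filter, with a median of 13077 to 14956.5 UMIs per library, and 571 barcode sequences occurred in more than 1 library. Cells were assigned by gates: the summed UMIs of a fixed marker list, per 10000 UMIs, had to reach a threshold with at least 3 markers detected. The 16 gates with at least 50 cells held 66.7% of the kept cells. Another 10542 cells passed none. Some gates gave way to others. A cell passing the macrophage-like and the microglia-, Kupffer- or osteoclast-like gate went to the latter. Monocyte-like cells passing the granulocyte-monocyte progenitor- or neutrophil-like gate went there. The Clec4a-high gate gave way to all these gates and to the dendritic-like one. Of 3205 cells passing its rule, 1480 stayed in it. After this, 950 cells still passed several gates and were left out. In each gate every marker of its own list had UMIs, and cells are called macrophage-like, osteoclast-like and so on after their gate. The gates are ranges of a score and not sharp types: 2441 cells lay within 25% of the threshold of the macrophage-like gate, 2742 of the monocyte-like, 3390 of the Clec4a-high and 15 of the osteoclast-like one. Neutrophil-like and granulocyte-monocyte progenitor-like cells also carried monocyte markers, at medians of 66.9 and 40.2 per 10000 UMIs. Clec4a-high cells were mixed as well: their own markers had a median of 18.3, monocyte markers 11.4 and macrophage markers 10.8, and a threshold multiplied by 2 gave a gate of 219 cells in place of 1480.

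Over all barcodes Fcgr3 gave 304826 UMIs, Fcgr1 115269, Fcgr4 27372 and Fcgr2b 27171. Levels below are given as CPM, the UMIs of a gene per 1000000 UMIs of all genes. A 3′ count is 1 per captured transcript and does not scale with length. Whether capture differs between the genes was not tested, so orders and shares of different genes are those of their UMIs. Intervals are exact Poisson 95% intervals and cover counting error only. Free RNA can reach any droplet, so each level is read against 4 gates of non-myeloid cells, the erythroid-, hepatocyte-, mesenchymal- and endothelial-like ones. Whether free RNA alone makes up the receptor levels of these gates was not tested. Their range, called the background, was 29.9 to 83.0 CPM for Fcgr3, 9.76 to 30.1 for Fcgr1, 3.75 to 9.91 for Fcgr2b and 0.651 to 9.89 for Fcgr4. Some endothelium carries Fcgr2b, and without the endothelial-like gate the Fcgr2b range was 3.75 to 7.03 CPM. Fewer receptor-bearing cells in a gate and less RNA per cell cannot be told apart in these sums, which is why shares of cells with a UMI are given too.

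**Figure D1:**
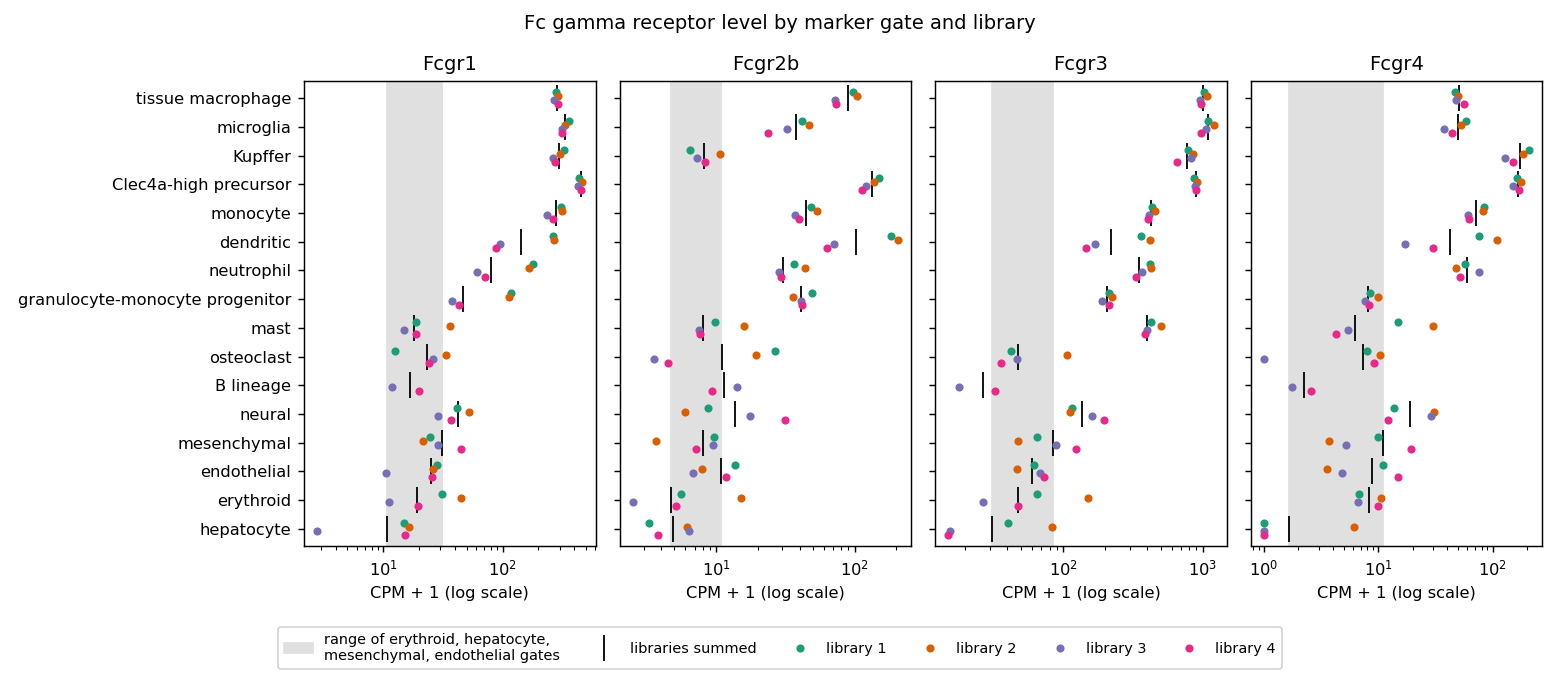
Level of each receptor in the 16 gates, as CPM + 1 on a log axis. Points are libraries 1 to 4, the vertical tick is the libraries summed, and grey is the background range. Fcgr3 lies inside the grey range in osteoclast-like cells (46.9 CPM), and Fcgr2b does in Kupffer-like cells (7.21 CPM).

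Fcgr3, the low-affinity activating receptor, gave the most UMIs of the 4 in each of the 16 gates. In macrophage-like cells (9087 cells bearing Mrc1, Lyve1, Pf4 and related markers of resident tissue macrophages) it reached 1014, 1072, 950 and 970 CPM in libraries 1 to 4, and 1006 when summed (interval 1001 to 1012). Microglia-like cells, named after the brain's macrophages, had 1089, 1193, 1055 and 975 CPM, and 1090 when summed. These ranges overlap, so no order between them is given.

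Fcgr3 in the 1480 Clec4a-high cells, which carry the lectin genes Clec4a1, Clec4a2 and Clec4a3 with Socs3, was 865 to 905 CPM. Its range there lay below that of macrophage-like cells and above the 653 to 855 CPM of Kupffer-like cells, the macrophages of the liver. Monocyte-like cells followed at 434, 450.5, 412 and 403 CPM, under every library of the 4 gates named so far. Mast-like cells, with 424, 498, 395 and 384 CPM, overlapped with the monocyte-like range.

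Fcgr3 was lower again in neutrophil-like (351 CPM) and granulocyte-monocyte progenitor-like cells (205 CPM). Dendritic-like cells gave 359 and 416 CPM in libraries 1 and 2 but 168 and 145 in libraries 3 and 4. All 4 receptors showed this split between libraries in dendritic-like cells, so their summed values are means of unlike sets. Neural-like cells stood at 136 CPM, above the background range, and they also held 602 CPM of Fcer1g, more than any background gate.

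In osteoclast-like cells Fcgr3 was 41.6, 106, 45.6 and 35.2 CPM, from 71 cells and 89 UMIs, or 46.9 when summed (interval 37.7 to 57.7). Libraries 1, 3 and 4 lay far below the other myeloid gates and inside the background range. Library 2 was above that range, but there erythroid-like cells reached 150 CPM too, and the library held 9 osteoclast-like cells. The macrophage-like level was 21.4 times the osteoclast-like one, with a difference of 4.16 in log2(CPM + 10), of 3.22 to 4.44 in single libraries and of 4.33 without library 2.

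The other receptors were near background in CPM in osteoclast-like cells as well. Fcgr1 stood at 22.1 CPM (42 UMIs), Fcgr2b at 10.0 (19 UMIs) and Fcgr4 at 6.33 (12 UMIs). The Fcgr2b value rests on libraries 1 and 2, at 25.4 and 18.5 CPM, while libraries 3 and 4 gave 2.53 and 3.52. In UMIs per cell all 4 receptors lay above every background gate. Fcgr3 was at 1.254 against at most 0.946, and Fcgr1 at 0.592 against at most 0.373. Fcgr2b was at 0.268 against at most 0.153, and Fcgr4 at 0.169 against at most 0.149. Osteoclast-like cells were also deeper, at a median of 25984 UMIs against 9388 to 15931 in the background gates. The part of depth was not tested. Of the 3 members that reached 50 CPM in either gate, all were at least 2-fold higher in macrophage-like cells, where 15.7% of the 3260 genes tested were. Fcgr4 did not reach that level (log2 difference 1.86). This contrast chose the members, so nothing is read from the count.

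After each cell was thinned to 2000 UMIs, Fcgr3 was seen in 7 of 70 osteoclast-like cells, or 10.0% (exact binomial 95% interval 4.12 to 19.5). The share was 84.0% of macrophage-like, 84.7% of microglia-like, 55.5% of monocyte-like and 55.0% of mast-like cells. It was 8.58% in erythroid-like, 9.57% in mesenchymal-like and 5.88% in hepatocyte-like cells, and the interval of the osteoclast-like share covers these shares. Without thinning the shares were 42.3% of osteoclast-like cells, at a median of 25984 UMIs, against 29.1% of erythroid-like cells, at 15931.

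Fcer1g, the adaptor chain, stayed above background in CPM, where Fcgr3 with the libraries summed did not. Osteoclast-like cells held 858, 1449, 970 and 812 CPM of Fcer1g, above the 153 to 363 CPM of the background gates and below the 3817 to 4235 of macrophage-like cells. Thinned, 84.3% of osteoclast-like cells had an Fcer1g UMI, against 26.5% of erythroid-like cells. The gamma chain also serves receptors other than those for IgG, among them OSCAR on osteoclasts.

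Per UMI of Fcer1g, osteoclast-like cells held 0.0506 UMIs of Fcgr3, with 0.0433 to 0.0735 in single libraries. The other 15 gates lay between 0.143 (dendritic-like) and 0.335 (microglia-like), and the lowest value of any single library among them was 0.102. Each library of osteoclast-like cells thus had less Fcgr3 per adaptor UMI than any library of the other 15 gates. The ratio holds the low Fcgr3 level that chose the members, so it is a description and not a separate result. Whether free RNA sets the ratio of the background gates was not tested.

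**Figure D2:**
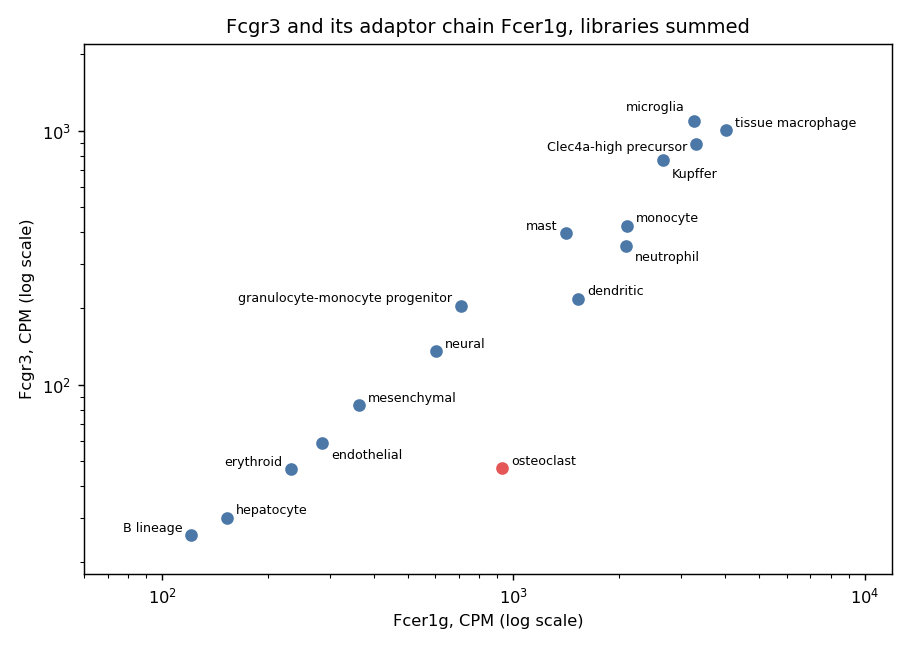
Fcgr3 against Fcer1g, in CPM with both axes on a log scale, 1 point per gate with the libraries summed. The osteoclast-like gate (red, 928 CPM of Fcer1g and 46.9 of Fcgr3) lies below the band of the other 15 gates.

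Fcgr1, the high-affinity receptor for IgG, was highest in Clec4a-high cells, at 437, 466, 431 and 457 CPM. No library of another gate reached these values. Microglia-like (332 CPM), Kupffer-like (296), macrophage-like (284) and monocyte-like cells (279) followed, and the library ranges of each neighbouring pair overlapped. Fcgr1 thus spanned 279 to 332 CPM over 4 gates in which Fcgr3 spanned 423 to 1090.

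Fcgr1 was at 78.8 CPM in neutrophil-like and 45.9 in granulocyte-monocyte progenitor-like cells. In both, libraries 1 and 2, with 33 to 38 cells each, were higher (112 to 180 CPM) than libraries 3 and 4 (36.7 to 70.5 CPM). Mast-like cells gave 17.8, 35.1, 13.8 and 17.99 CPM of Fcgr1, with library 2 just above the background range and the others inside it, and with a thinned share of 3.66% against 3.31% in erythroid-like cells.

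Fcgr4, the activating receptor of intermediate affinity, had its own order. Kupffer-like cells gave 207, 182, 128 and 149 CPM and Clec4a-high cells 162, 175, 148 and 168, with overlapping ranges. Monocyte-like cells followed at 82.2, 81.8, 59.2 and 60.9 CPM, below every library of those gates. The macrophage-like and the microglia-like gate held 49.2 CPM each, and their library ranges overlapped with each other and with neutrophil-like cells (58.5 CPM).

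The Fcgr4 level of macrophage-like cells was thus 0.285 times that of Kupffer-like cells, lower in each of the 4 libraries, while Fcgr3 was 1.31 times as high in macrophage-like cells. Thinned, 30.4% of Kupffer-like cells had an Fcgr4 UMI (24.6 to 37.3% by library), against 8.93% of macrophage-like cells (8.70 to 9.49%). Granulocyte-monocyte progenitor-like cells (7.09 CPM) were inside the background range in each library. Per cell they held 0.209 Fcgr4 UMIs, against at most 0.149 in the background gates, at a higher median depth (32158 UMIs). Mast-like cells were inside the background range when summed (5.22 CPM) and in libraries 3 and 4. They were at 13.8 and 29.1 CPM in libraries 1 and 2, which held 50 and 64 of their 1646 cells. Of 4 members that reached 50 CPM, 1 (Fcgr4) was at least 2-fold lower in macrophage-like than in Clec4a-high cells, where 3.49% of 2984 genes were, by 1.56 on the log2 scale.

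Fcgr2b, the inhibitory receptor, stood at 148, 136, 119 and 111 CPM in Clec4a-high cells, the highest level with the libraries summed (131 CPM). Macrophage-like cells gave 96.3, 103, 71.6 and 72.9 CPM, below every Clec4a-high library. Dendritic-like cells were above both in libraries 1 and 2, at 182 and 204 CPM, and below both in libraries 3 and 4, at 69.6 and 61.6. Monocyte-like (43.3 CPM), granulocyte-monocyte progenitor-like (40.3) and microglia-like cells (36.6) followed with overlapping ranges, all above background.

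Kupffer-like cells stood apart from the other macrophages in Fcgr2b, at 5.52, 9.69, 6.23 and 7.28 CPM (7.21 when summed, interval 5.60 to 9.14). That is within the background range of the 4 gates, and the sum is just above the 7.03 CPM of the highest gate other than the endothelial-like one. The macrophage-like level was 12.2 times as high, and the log2 difference was 2.26 to 2.78 in single libraries. Thinned to 2000 UMIs, 8 of 714 Kupffer-like cells had an Fcgr2b UMI, or 1.12% (interval 0.48 to 2.20), against 1.56% of erythroid-like, 14.97% of macrophage-like and 6.48% of microglia-like cells. Of 4 members that reached 50 CPM, 1 (Fcgr2b) was at least 2-fold higher in macrophage-like than in Kupffer-like cells and 1 (Fcgr4) at least 2-fold lower, where 4.63% and 5.68% of 3066 genes were.

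Against microglia-like cells, 3 members reached 50 CPM and 1, Fcgr2b, was at least 2-fold higher in macrophage-like cells (log2 difference 1.07), where 3.12% of 3046 genes were. Against monocyte-like cells all 4 reached it and 1, Fcgr3, was at least 2-fold higher (1.23), where 9.69% of 3177 genes were. Fcgr2b was 0.88 higher there and Fcgr4 0.44 lower on the log2 scale, each in the same direction in all 4 libraries. Against mast-like cells all 3 members that reached 50 CPM were at least 2-fold higher, where 17.7% of 3319 genes were.

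Mast-like cells carried Fcgr3 nearly alone. It made up 93.1% of their 12767 receptor UMIs, and their Fcgr2b (7.01 CPM, 1.54% of cells thinned) lay in the background range, though library 2 reached 14.9 CPM. Fcgr3 per UMI of Fcer1g, 0.279, was close to the 0.2499 of macrophage-like cells.

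The share of the inhibitory receptor among the UMIs of all 4 receptors put these levels on 1 scale. It was 6.15% in macrophage-like cells (exact binomial interval 6.04 to 6.27, libraries 5.24 to 6.82), 8.04% in Clec4a-high and 5.31% in monocyte-like cells. It was 2.43% in microglia-like and 0.579% in Kupffer-like cells (libraries 0.417 to 0.719). Granulocyte-monocyte progenitor-like cells reached 13.5% and dendritic-like cells 20.1%. The dendritic-like share was alike in the 4 libraries, at 19.1 to 20.6%, although the levels themselves differed between libraries.

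**Figure D3:**
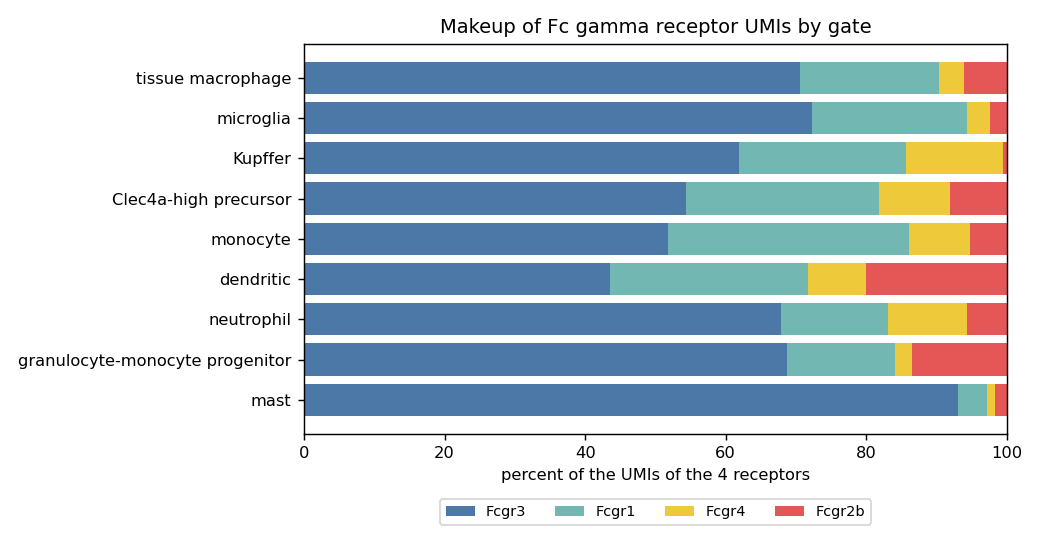
Makeup of the receptor UMIs of 9 gates, as stacked percentages with the libraries summed. Fcgr3 is the largest part in each, from 43.6% in dendritic-like to 93.1% in mast-like cells, and the red Fcgr2b part narrows to 0.579% in Kupffer-like cells.

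Receptors were often read in the same cell. Thinned to 2000 UMIs, 91.8% of macrophage-like, 89.5% of Kupffer-like and 93.9% of Clec4a-high cells had a UMI of at least 1 receptor. In macrophage-like cells 13.1% had both Fcgr3 and Fcgr2b, close to the 12.6% given by the product of the separate shares. In monocyte-like cells the pair was found in 6.73% against a product of 5.25%, and Fcgr3 with Fcgr1 in 27.3% against 23.7%. Among the background gates, Fcgr3 with Fcgr1 was found in 1.94% of mesenchymal-like cells against 0.429%. It was found in 1.75% against 0.284% in erythroid-like and 1.15% against 0.374% in endothelial-like cells. In hepatocyte-like cells the pair was found in 0% against 0.0865%. The cause was not tested. Cells with Fcgr2b alone made up 0.883% of macrophage-like and 6.35% of dendritic-like cells.

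Fcgr2b was lower in libraries 3 and 4 than in libraries 1 and 2 in macrophage-like, microglia-like, Clec4a-high and monocyte-like cells. By library it was 40.5, 46.1, 31.7 and 22.6 CPM in microglia-like and 47.2, 52.7, 35.9 and 38.3 in monocyte-like cells. The values of the other gates are given above. Fcgr3 of macrophage-like cells was lower in the same libraries, by a smaller ratio. The split of Fcgr2b held among macrophage-like cells with no tdTomato UMI (102 and 110 CPM against 79.6 and 80.3) and among those with at least 3 (87.9 and 88.6 against 62.1 and 69.8). What the library numbers stand for is not known, and the cause was not tested.

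Macrophage-like cells with at least 3 tdTomato UMIs (2782 cells) were also set against those with none (4293). Fcgr2b was 75.8 against 96.6 CPM, lower in 4 of 4 libraries, and Fcgr3 was 1088 against 969 CPM, higher in 4 of 4. Fcgr1 was 285 in both. Fcgr4 was 45.0 against 51.5 CPM, lower in 4 of 4. The log2 differences were -0.31 for Fcgr2b and 0.17 for Fcgr3, at like median depths of 12621.5 and 12525 UMIs. The Clec4a-high markers summed to 627 CPM (609 to 658 by library) against 724 (691 to 767), and the macrophage markers to 8387 (7976 to 8759) against 7411 (6853 to 7612). The part of these markers in the result was not tested.

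Interferon-marked cells had more of each receptor. Cells were marked when 6 interferon-induced genes (Ifit1, Ifit3, Isg15, Rsad2, Ifi204 and Cxcl10) summed to at least 15 per 10000 UMIs with 3 detected. In the 199 marked macrophage-like cells Fcgr4 was 199, 233, 217 and 229 CPM, against 43.0, 43.9, 44.4 and 51.3 in the other 8888. Fcgr1 was 635, 626, 619 and 733 CPM against 271, 285, 261 and 282. In both receptors every marked value lay above every unmarked one.

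Fcgr2b in marked macrophage-like cells was 176 against 86.0 CPM, and Fcgr3 was 1329 against 1000. The differences were 2.05 for Fcgr4, 1.23 for Fcgr1, 0.95 for Fcgr2b and 0.41 for Fcgr3 on the log2 scale, each positive in 4 of 4 libraries. All 4 members reached 50 CPM and 2, Fcgr1 and Fcgr4, were at least 2-fold higher, where 3.18% of 2956 genes were. The macrophage markers summed to 7988 CPM in marked and 7709 in other cells (1 of 7 monocyte markers was at 0 in the marked cells), while Clec4a-high markers summed to 901 and 683 and Kupffer markers to 109 and 63.6. The part of those other markers in the result was not tested.

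The 246 marked monocyte-like cells gave the same order. Fcgr4 was 326, 344, 409 and 292 CPM against 59.9, 64.4, 51.1 and 50.5 in the other 3391, and Fcgr1 was 752, 797, 997 and 759 against 267, 281, 217 and 239. Fcgr2b was 89.2 against 40.7 CPM, and Fcgr3 589 against 414. The log2 differences were 2.36, 1.61, 0.97 and 0.50, positive in 4 of 4 libraries, and again Fcgr1 and Fcgr4 of 4 members were at least 2-fold higher, where 5.24% of 3033 genes were.

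In these monocyte-like cells the 4 Clec4a-high markers also differed, at 1291 CPM summed (1060 to 1417 by library) against 682 (619 to 768). The 6 Kupffer markers summed to 47.1 against 9.81 CPM, and the median depth was 13113 against 17491 UMIs. Their part in the result was not tested. The makeup of receptor UMIs differed with the mark: Fcgr3 was 32.8% of receptor UMIs in marked and 54.4% in other monocyte-like cells, and Fcgr1 was the largest part of the marked cells, at 43.9%. Without Ifi204 in the mark, chosen after seeing the data, 111 macrophage-like and 131 monocyte-like cells remained, with Fcgr4 differences of 2.24 and 2.49.

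Cycling cells had a lower CPM of each receptor. Cells were marked as cycling by 6 cell-cycle genes, among them Mki67 and Top2a. Fcgr4 was 24.8, 28.3, 30.02 and 27.4 CPM in the 1368 cycling macrophage-like cells, against 51.3, 52.4, 52.3 and 61.6 in the others, with no overlap. Fcgr3 was 815 against 1053 CPM, Fcgr1 234 against 296 and Fcgr2b 68.5 against 92.5, each lower in 4 of 4 libraries. None of the 4 members was at least 2-fold lower on the log2(CPM + 10) scale, where 0.101% of 2970 genes were.

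In the 1193 cycling monocyte-like cells Fcgr4 was 39.1, 28.6, 18.7 and 24.5 CPM, against 114, 123, 93.8 and 84.8 in the other 2444. It was the 1 member of 3 that reached 50 CPM and was at least 2-fold lower, where 0.445% of 2922 genes were. Fcgr1 was 217 against 325 CPM, Fcgr3 350 against 478 and Fcgr2b 35.6 against 49.0. Cycling cells were deeper, at a median of 23130 against 14389.5 UMIs in monocyte-like and 17051 against 12335 in macrophage-like cells. In UMIs per cell Fcgr4 was lower in cycling cells, at 0.658 against 1.60 in monocyte-like and 0.481 against 0.704 in macrophage-like cells. The other receptors were not lower per cell. In the same order of gates Fcgr3 was 8.30 against 7.48 and 14.3 against 13.6. Fcgr1 was 5.15 against 5.10 and 4.12 against 3.82, and Fcgr2b 0.846 against 0.768 and 1.204 against 1.194. Clec4a-high markers summed to 532 CPM (492 to 577 by library) in cycling and 849 (734 to 989) in other monocyte-like cells, and to 560 (515 to 589) and 719 (696 to 758) in macrophage-like cells. The 6 interferon-induced genes summed to 318 (245 to 397) and 625 (429 to 808) CPM in monocyte-like cells. The part of depth and of these markers in the result was not tested.

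**Figure D4:**
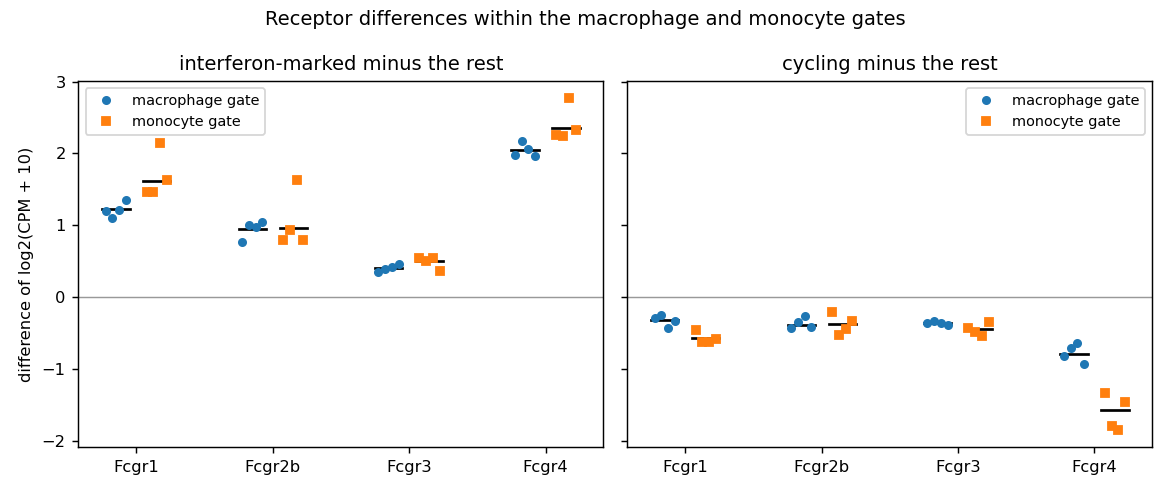
Differences of log2(CPM + 10) within the macrophage-like (blue circles) and monocyte-like (orange squares) gates, 1 point per library and a bar for the libraries summed. Every point is above 0 for interferon-marked cells and below 0 for cycling cells, and Fcgr4 lies farthest from 0 in both panels (2.05 and 2.36 on the left).

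Ly6c2 is used to divide adult monocytes into an inflammatory and a more mature state, and whether it does so in these cells was not tested. Monocyte-like cells with at least 5 Ly6c2 UMIs per 10000 had less Fcgr4 (45.4, 44.6, 37.3 and 38.6 CPM) than the rest (95.1, 93.4, 75.9 and 74.6), with no overlap. Fcgr1 was 217 against 310 CPM, while Fcgr3 (443 against 414) and Fcgr2b (41.3 against 44.3) did not differ the same way in all 4 libraries. Cells with more Ly6c2 also had less of the interferon-induced genes, at 301 CPM summed (276 to 368 by library) against 590 (382 to 752), and of the Clec4a-high markers, at 594 (574 to 631) against 773 (677 to 864). The part of these markers was not tested. Chemokine-rich macrophage-like cells, marked by Cxcl1, Ccl3 and related genes, were near the others: Fcgr4 was 59.5 against 48.0 CPM, and with the libraries summed the other 3 receptors differed by at most 0.04 on the log2 scale. By library Fcgr2b ranged from -0.08 to 0.20 and was higher in 3 of 4 libraries, against -0.04 for the sum, and Fcgr3 ranged from -0.01 to 0.11.

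Sinusoidal endothelium of the liver is known for Fcgr2b protein. The 96 endothelial-like cells with sinusoidal markers held 15.99 CPM of Fcgr2b (25 UMIs) against 6.36 (17 UMIs) in the other 178. The libraries were mixed, at 21.7, 7.71, 0 and 25.6 CPM, so no difference is read at this depth. Fcgr3 was 72.3 CPM there against 51.3, also with overlapping libraries.

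The other genes of the pathway came from lists of 32 genes. Between macrophage-like and osteoclast-like cells 14 of them reached 50 CPM, 7 were at least 2-fold higher in macrophage-like cells and 1 lower, with a median log2 difference of 0.91 against -0.10 over all genes tested. Of all genes tested, 15.7% were at least 2-fold higher and 10.5% lower. Fcer1g (2.11), the Src family kinase Lyn (1.38), the phosphatase Ptpn6 (1.16), Fcgrt (3.11) and Fcrls (3.89) were among the 7. Blnk, an adaptor that links Syk to phospholipase C, was the 1 lower, by 2.46.

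Syk, the kinase that docks on the gamma chain, was 51.1 CPM in osteoclast-like cells (30.1, 74.1, 43.1 and 59.8 by library) and 44.5 in macrophage-like cells, lower there in 3 of 4 libraries. Blnk was 78.6, 69.4, 88.7 and 93.7 CPM in osteoclast-like cells and 7.52 in macrophage-like cells, with microglia-like cells at 68.7. Dok1, an inhibitory docking protein, was 87.5 against 43.3 CPM, higher in osteoclast-like cells in each library. Inpp5d, the phosphatase recruited by Fcgr2b, was 34.8 CPM in osteoclast-like and 63.4 in macrophage-like cells, and Cblb, a ubiquitin ligase, was low in both (6.33 and 5.28).

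Between macrophage-like and Kupffer-like cells 12 of the 32 pathway genes reached 50 CPM, of which 1, Fcrls, was at least 2-fold higher and 1 lower, against 4.63% and 5.68% of all genes tested. Of the Src family kinases, Fgr was at 70.9 CPM in neutrophil-like and 41.8 in monocyte-like cells but 1.17 in macrophage-like cells. Among the myeloid gates Lyn ranged from 50.7 CPM in mast-like to 301 in microglia-like cells, and Ptpn6 from 87.8 in mast-like to 430 in monocyte-like cells.

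Mast-like cells had little Syk (13.8 CPM) but much Lat2, an adaptor of antibody receptors in mast cells (105 CPM, against 4.88 in Kupffer-like cells). They also carried Ms4a2, the beta chain of the IgE receptor, at 95.2 CPM (89.9 to 102 by library), against at most 0.735 in the macrophage and monocyte gates.

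Receptors for antibody outside the family differed as well. Fcgrt, which encodes the neonatal Fc receptor that recycles IgG, was 797 CPM in macrophage-like cells (748 to 846 by library), 359 in microglia-like and 83.3 in osteoclast-like cells. Fcrls, a scavenger-type relative of the Fc receptors, reached 2397 CPM in microglia-like cells, 1186 in macrophage-like cells and 73.6 in Kupffer-like cells.

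**Figure D5:**
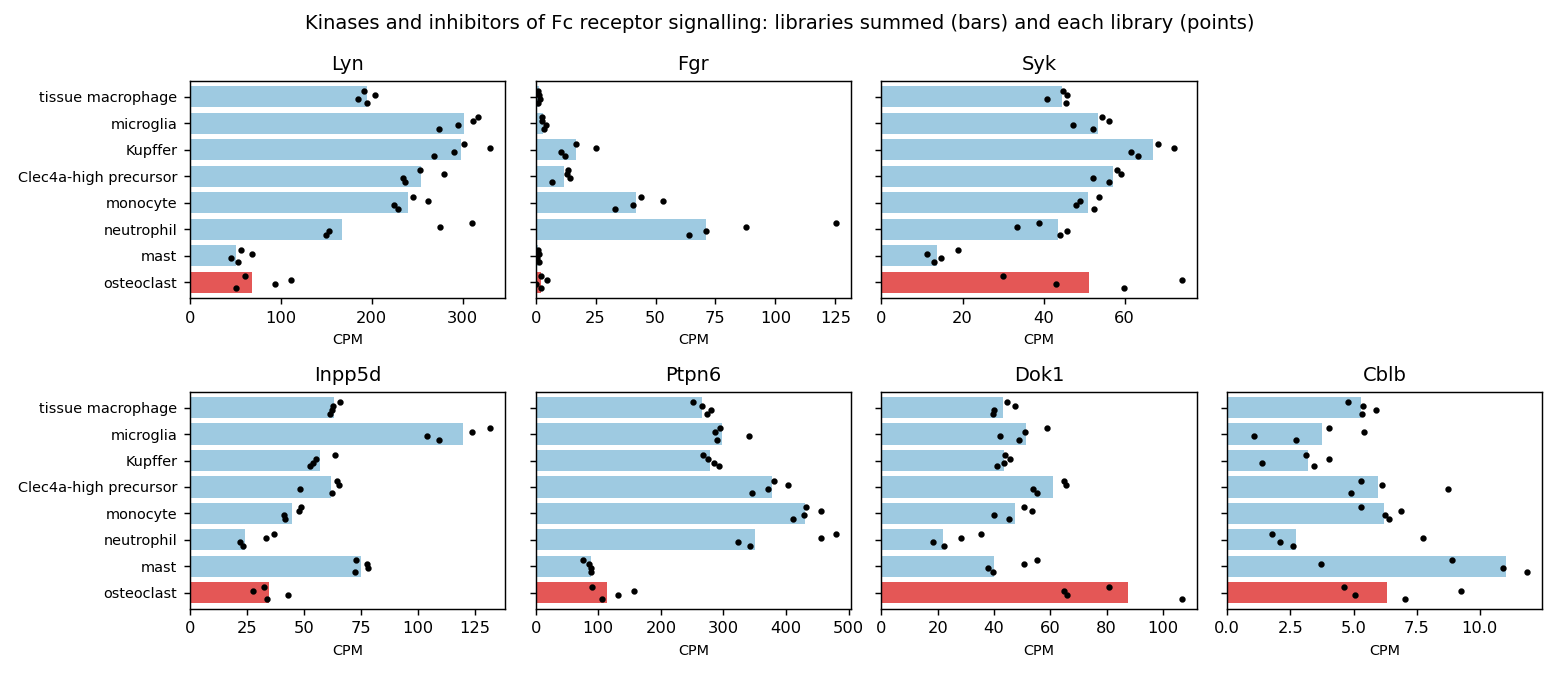
Level in CPM of 3 kinases (top row) and 4 inhibitory genes (bottom row) in 8 gates. Bars are the libraries summed, points the 4 libraries, red the osteoclast-like gate. Syk is lowest in mast-like cells (13.8 CPM), and in osteoclast-like cells (51.1 CPM) it lies among the macrophage gates.

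Over the 16 gates, which share libraries and free RNA, the 4 receptors followed one another to unlike degrees. Pearson's r of log2(CPM + 10), a description over 16 gates, was 0.932 for Fcgr1 with Fcgr4, 0.879 for Fcgr1 with Fcgr3 and 0.612 for Fcgr2b with Fcgr4. Of 6231 genes searched, the most alike in pattern to Fcgr3 was Fcer1g (0.942), followed by Vps26a, Gm26522, Fyb and AI413582.

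Fcgr1 was most like Ms4a6d (0.974), Cd300a, Apobec1, Map3k8 and Tnfrsf1b. Among the genes most like Fcgr4 were Ccl6 (0.970), AB124611, Ifi204 and Cd300a. Fcgr2b had the least close neighbours, Cysltr1 (0.893), Ms4a6c, Tagap, Rab7b and Tnfrsf13b (0.858), of which all but Ms4a6c were highest in dendritic-like cells.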

How the data were processed

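The deposited matrix holds whole-number UMI counts per gene and cell, made by the authors from 10x 3′ libraries (kit v1, per the labels' protocols). Per the submitters' processing notes the authors used Cell Ranger 2.1.1 with mm10, while the file header gives version 3.0.1. All 4 libraries sit in 1 matrix and the 4 numbers match none of the 6 samples, so the matrix was taken as 1 sample and no test was run.

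Cells with at least 1000 UMIs, at least 500 genes and at most 10% mitochondrial UMIs were kept. No doublet caller was used. Gates required at least 3 markers. Some gates gave way to others, as described above, and cells still in several gates were left out. UMIs were summed per gate and library, divided by all UMIs (CPM) and compared as log2(CPM + 10). A gene entered a comparison with at least 50 CPM in either class. Detection used cells thinned to 2000 UMIs with exact Clopper-Pearson intervals, leaving out shallower cells. Python 3.11.15, numpy 2.4.6, scipy 1.17.1, pandas 2.3.3 and matplotlib 3.10.9 were used. Counts of 2762 genes were simulated for the macrophage-like against osteoclast-like contrast, with 4-fold changes set in 100 genes each way. Of these, 100% came back within 0.5 log2. No separate figure is given for counts as low as those of the receptors in osteoclast-like cells.

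The members and the lists were chosen with earlier results of these data known. Gate and mark thresholds were set after the data were seen, from the markers alone. Genes named are the 4 receptors, the adaptor, Src family kinase, Syk and inhibitor lists, any other pathway gene with at least 50 CPM in a gate and a difference of at least 4-fold among 6 myeloid gates, and the 5 genes most correlated with each receptor over the gates. The alternatives were other pseudocounts, gate thresholds, cell filters, thinning depths, weightings of cells and libraries, and leaving out each library or the deepest 5% of cells. A gene that the rule would name is not reported here.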

Additional observations from a re-analysis of the deposited data

Results flagged for a closer look

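The CPM of the 4 libraries were checked for 1 library standing apart, in 60 combinations of a gate and a receptor, and 4 were found. Chance alone marks about 1 in 20 such sets. Fcgr3 in osteoclast-like cells was 106 CPM in library 2, from 9 cells, against 35.2 to 45.6 in the others. In hepatocyte-like cells Fcgr1 was 1.81 CPM in library 3, against 13.8 to 15.4 elsewhere. The single Fcgr4 UMI of hepatocyte-like cells lay in library 2, at 5.13 CPM. In endothelial-like cells Fcgr1 was 9.61 CPM in library 3, from 35 cells, against 24.6 to 27.3 elsewhere.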

How the results depend on the processing

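No paired analysis was possible because no test was made: the library numbers match no sample, so the libraries could not be taken as replicates of a group. Differences within each library are given as values. Across 42 values (36 log2 differences and 6 Fcgr2b shares of receptor UMIs) and 452 alternative values, 395 moved by less than 1 SD over the libraries, 57 moved by more, and none of the called differences reversed. Leaving out each library in turn, and the stricter cell filter, moved none of the 42 past that spread. The spread comes from the same libraries, so leaving out 1 of them could hardly move a value past it. Nothing is read from those values, which the 395 include. Depth limits osteoclast-like cells most: 12 to 89 UMIs per receptor. In every case below the cause was not tested beyond what the setting itself changes.

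With a pseudocount of 1 CPM, macrophage-like minus osteoclast-like log2 differences were 3.62 for Fcgr1, 3.01 for Fcgr2b and 2.78 for Fcgr4, and those against mast-like cells 3.98, 3.47 and 3.01. Fcgr2b was 1.004 against monocyte-like and 3.44 against Kupffer-like cells. Fcgr4 was 2.25 in interferon-marked macrophage-like cells, -0.97 in cycling macrophage-like and -1.85 in cycling monocyte-like cells.

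With gate thresholds multiplied by 2, Fcgr1, Fcgr2b, Fcgr3 and Fcgr4 differed between macrophage-like and monocyte-like cells by -0.26, 0.45, 0.98 and -1.48, so Fcgr1 turned from 0.02 to below 0 and Fcgr3 no longer reached 2-fold. Against microglia-like cells Fcgr1 was -0.37 and Fcgr4 -0.31, and against Kupffer-like cells Fcgr2b was 2.80 and Fcgr4 -2.02. In interferon-marked macrophage-like cells Fcgr2b was 1.10 and Fcgr4 2.26, and in monocyte-like ones Fcgr2b was 0.50, Fcgr3 0.070 and Fcgr4 1.94. Cycling monocyte-like cells gave -0.81 for Fcgr1 and -1.92 for Fcgr4. The Fcgr2b share was 0.375% in Kupffer-like, 9.69% in Clec4a-high and 6.31% in monocyte-like cells.

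With thresholds divided by 2, Fcgr2b differed by 0.93 from monocyte-like and 0.81 from microglia-like cells, the latter under 2-fold. Fcgr3 was 0.64 in interferon-marked monocyte-like cells. In cycling macrophage-like cells Fcgr2b was -0.29 and Fcgr3 -0.33, and in cycling monocyte-like cells Fcgr1 was -0.48 and Fcgr4 -1.28. The Fcgr2b share was 3.11% in microglia-like, 0.748% in Kupffer-like and 6.02% in Clec4a-high cells.

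With each cell weighted equally, Fcgr1 differed by 2.70 from osteoclast-like cells, Fcgr2b, Fcgr3 and Fcgr4 by 0.63, 1.09 and -0.82 from monocyte-like cells, and Fcgr2b by 2.37 from mast-like cells. Fcgr3 was 0.35 and 0.39 in interferon-marked macrophage-like and monocyte-like cells. Fcgr2b was -0.51 in cycling macrophage-like cells, and Fcgr2b and Fcgr3 were -0.55 and -0.53 in cycling monocyte-like cells. With libraries weighted equally, Fcgr2b and Fcgr3 differed by 2.32 and 1.22 from mast-like cells. Without the deepest 5% of cells, Fcgr2b and Fcgr3 differed by 0.80 and 1.16 from monocyte-like cells, and Fcgr3 was -0.35 in cycling monocyte-like cells. With Ifi204 out of the interferon mark, chosen after seeing the data, Fcgr1 was 1.40 and Fcgr4 2.24 in macrophage-like cells and Fcgr3 0.39 in monocyte-like cells. Thinning to 4000 UMIs, or not thinning, raised 55 of 56 shares of cells with a UMI. Such shares rise with depth, so this was fixed in advance apart from sampling, and nothing is read from it.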

Other observations

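The reporter split was also read in the other myeloid gates. Fcgr2b in microglia-like cells was 33.1 CPM with at least 3 tdTomato UMIs and 40.9 with none, and the direction differed between libraries. In monocyte-like cells it was 62.5 against 44.3 CPM, higher in 3 of 4 libraries, and in Clec4a-high cells 157 against 126, also in 3 of 4. In Kupffer-like cells it was 7.596 against 3.67 CPM, from 33 and 10 UMIs, higher in 3 of 4. The lower Fcgr2b of macrophage-like cells with tdTomato therefore had no counterpart of the same direction in all libraries of these gates, and the difference between gates was not tested. Cells with at least 3 tdTomato UMIs were deeper here. Their median was 14966 against 5756 UMIs in Kupffer-like and 18621 against 14867.5 in monocyte-like cells. It was 9242 against 7704 in microglia-like and 13658 against 13136 in Clec4a-high cells (101 against 910 cells). The part of depth was not tested.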
